A study of Homo sapiens with 20 samples.

Results

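The genes described here encode core proteins of the small nuclear ribonucleoproteins (snRNPs) and factors that assemble the spliceosome. They are 48 genes, listed by symbol for their role and not for their values, out of 19362 gene IDs with at least 1 iCLIP peak. By role they comprise 5 proteins of or associated with the U1 snRNP, 2 of the U2 snRNP, 7 of the Sm ring, 7 of the LSm ring, 12 of the U5 snRNP and the U4/U6.U5 tri-snRNP, 3 of the minor U11/U12 spliceosome, and 12 factors related to the Prp19 complex or the catalytic steps. All 48 symbols matched a gene ID in the peak lists.

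The spliceosome builds itself anew on each intron. U1 recognises the 5′ splice site, U2 the branch site, and the preassembled tri-snRNP then joins, after which U1 and U4 leave and the Prp19-related proteins help to form the catalytic core. U2AF2 (U2AF65) binds the polypyrimidine tract ahead of the 3′ splice site and recruits U2, SRSF1 is an SR protein that binds exonic enhancers and contacts U1-70K, and hnRNPA1 is an RNA-binding protein known to oppose SR proteins. Many genes for splicing factors are themselves alternatively spliced or retain introns, which gives the cell a way to set the supply of the machinery.

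iCLIP crosslinks a protein to RNA with ultraviolet light, immunoprecipitates it and sequences the bound fragments. The cells were the human embryonic kidney line HEK293T TREX-FLP, either control cells or cells carrying inducible T7-tagged hnRNPA1. Both kinds were under antibiotic selection for 3 days and under tetracycline for 24 h. Controls were selected with blasticidin and zeocin and the inducible line with hygromycin, so the selecting drug and the transgene cannot be told apart. U2AF2 and SRSF1 were each profiled in 3 control and 3 overexpression libraries, hnRNPA1 in 2 and 2, all from nuclear extracts. Polyadenylated RNA from whole cells was sequenced from 2 control and 2 overexpression samples. The labels do not say whether libraries of a group came from separate cultures, so p-values measure the spread between these libraries, which may be technical. RNA levels of the members were not analysed here, so less RNA of a gene and less binding per RNA cannot be told apart in any result below.

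Depth differed between the conditions. U2AF2 libraries held 702563 to 1158060 reads in peaks in control cells and 2317615 to 3657197 with overexpression, while hnRNPA1 libraries held 2508821 to 2973275 in control cells and 549365 to 575471 with overexpression. SRSF1 libraries held 125082 to 329448. Every library listed peaks of at least 6 reads except U2AF2 overexpression replicate 3, which listed peaks from 3 reads and used another form of gene ID. SRSF1 control replicate 2 also stood apart: 30.8% of its peaks in members overlapped an hnRNPA1 control peak, against 61.8% and 66.7% in the other 2 control libraries. Of 7 markers of blood cells and fibroblasts, PTPRC, CD3E, COL1A1, COL1A2 and DCN had no peak in any library, SPI1 had 3 reads in 1, and LYZ had 22 to 597 reads in all 6 U2AF2 libraries. Of 4 epithelial markers, EPCAM had a peak in all 6 U2AF2 libraries, CDH1 in the 3 overexpression libraries, KRT8 in 1 and KRT18 in no library of any protein. Peaks in nuclear RNA are not expression levels, and the part of these genes in the results was not tested.

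The members took a small share of the signal in every library. Between 0.155% and 0.200% of the U2AF2 reads in peaks fell in members in control cells and 0.231% to 0.243% with overexpression. The SRSF1 shares were 0.220% to 0.325% in control cells and 0.253% to 0.276% with overexpression. The hnRNPA1 shares were 0.154% and 0.162% in control cells and 0.134% in both overexpression libraries. The overexpression libraries thus lay above every control library for U2AF2 and below both for hnRNPA1, and the groups overlapped for SRSF1. They were also the deeper libraries for U2AF2 and the shallower ones for hnRNPA1, and the part of depth in these shares was not tested. A U2AF2 peak was listed in 45 members, an SRSF1 peak in 38 and an hnRNPA1 peak in all 48. SNRPB2, SNRNP25 and CRNKL1 had no listed U2AF2 peak.

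With overexpressed hnRNPA1, U2AF2 reads fell in 9 members and rose in 7. PRPF38B fell from 675 ± 127 to 78.5 ± 9.93 normalised reads (SD, n = 3), PRPF39 from 436 ± 151 to 54.3 ± 3.60 and SNRPB from 302 ± 46.5 to 44.2 ± 8.61, with smaller falls in PRPF3 and the U1 gene SNRNP70. The rises included SNRNP48 of the minor spliceosome, the tri-snRNP helicase gene SNRNP200 and BUD31 and ISY1 of the Prp19-related group. The values are reads in peaks summed per gene and divided by a size factor for each library, and the test is limma on log2 of these values plus 1, with Benjamini-Hochberg adjustment over every gene that 50% or more of the protein's libraries listed, and a threshold of 0.05. Of the 48 members 41 entered this test and 16 passed it. Among all 13007 genes tested 43.5% passed, 27.5% higher and 16% lower, so the share of members that moved was near that of other genes. The median log2 change was 0.74 in the members tested and 0.76 in all genes tested, and 0.08 against -0.22 when values below 6 reads were set to 6 reads.

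**Figure D1:**
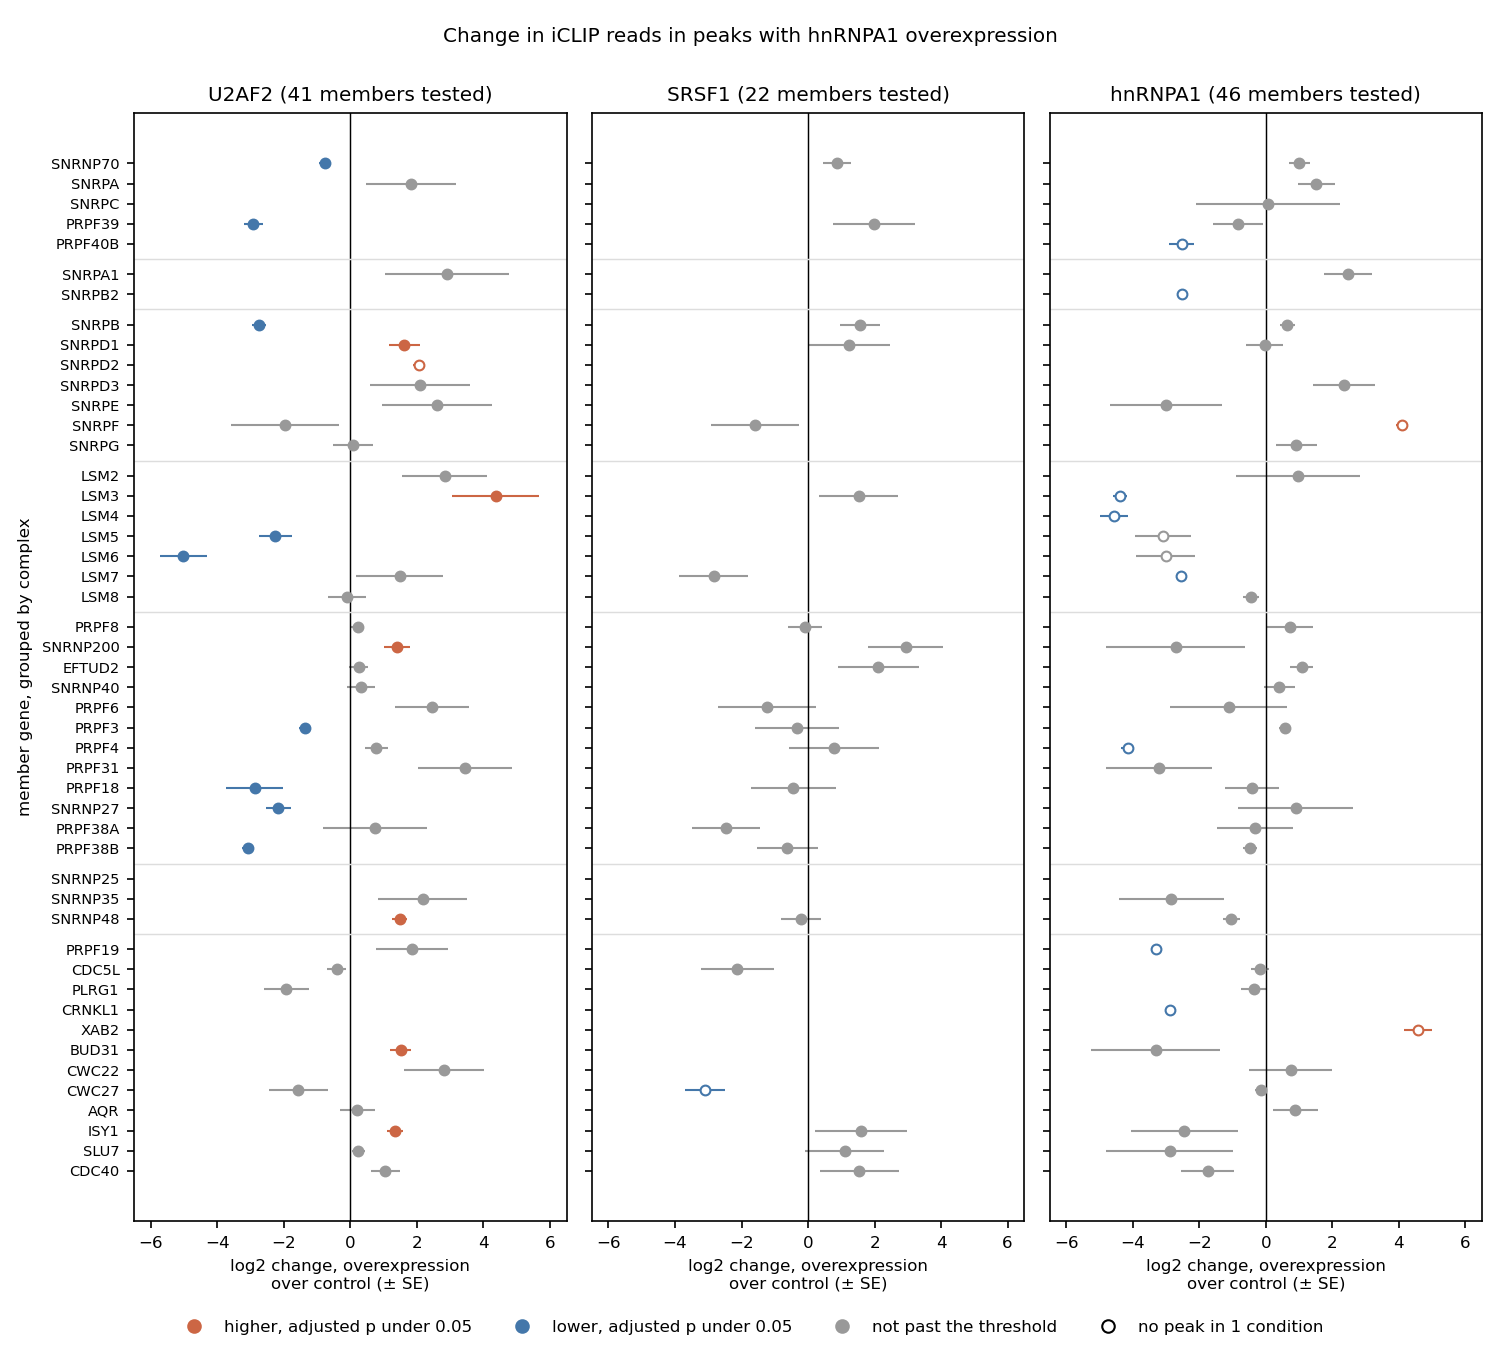
Change of each tested member with hnRNPA1 overexpression, as log2 of overexpression over control with its standard error, in 3 panels for U2AF2, SRSF1 and hnRNPA1 iCLIP. Members are grouped from top to bottom as U1, U2, Sm ring, LSm ring, U5 and tri-snRNP, minor spliceosome and Prp19-related. Coloured points passed an adjusted p of 0.05, and open points had no peak in 1 condition. For U2AF2, 7 points lie to the right and 9 to the left among the coloured ones, and for hnRNPA1 all 10 coloured points are open.

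Of the 41 members tested for U2AF2, the 3 overexpression libraries lay above all 3 control libraries in 10 (24.4%) and below them in 10 (24.4%). Over all genes tested, 40.2% separated in this way upwards and 20.8% downwards. Among the 25 members with a peak in every U2AF2 library, 15 passed, 6 higher and 9 lower, beside 59.3% of all such genes (28.6% higher and 30.7% lower). In that set PLRG1, a Prp19-complex protein, was also lower (adjusted p = 0.0102) and CDC40, a second-step factor, also higher (adjusted p = 0.0483). Scaled to total reads in peaks instead of size factors, 14 members rose and 7 fell, beside 42.1% and 10.5% of all genes. That scaling moved the median of all genes from 0.76 to 1.49. Left out in turn, overexpression replicates 1, 2 and 3 gave 8, 8 and 10 members called. Of the 16 calls, 9 (PRPF38B, PRPF39, SNRPB, PRPF3, SNRNP27, LSM6, SNRNP48, BUD31 and SNRPD2) were kept in every fit without 1 library that tested them, and 7 (SNRNP70, LSM5, PRPF18, LSM3, SNRPD1, SNRNP200 and ISY1) were lost in at least 1. SNRPD2, listed in overexpression libraries alone, was tested in only 3 such fits, none without an overexpression library. Its being kept there is thus no test of the call.

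Among the U1 genes, SNRNP70 encodes U1-70K, which binds U1 snRNA and is the contact for SR proteins. Its normalised U2AF2 reads were 199, 259 and 180 in the control libraries and 116, 125 and 129 with overexpression. The 2 groups did not overlap, and the gene fell by 0.77 ± 0.17 (SE) on the log2 scale (limma, adjusted p = 0.014). Without overexpression replicate 1, 2 or 3 its adjusted p lay between 0.0511 and 0.0991, and scaled by total reads its change was 0.03. PRPF39, an alternative-splicing factor that associates with U1, had 278, 453 and 577 normalised reads in control cells and 57.3, 50.3 and 55.2 with overexpression. It fell by 2.92 ± 0.28 (SE) on the log2 scale (limma, adjusted p = 0.000476). SNRPA, which encodes the U1 protein A, had 13.9 ± 12.2 (SD, n = 3) and 27.8 ± 10.4 normalised reads and did not pass, and SNRPC (U1 protein C) and PRPF40B had a peak in too few libraries to be tested.

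The U2 proteins A′ and B″ bind U2 snRNA as a pair, but their genes differed in whether U2AF2 peaks were listed. SNRPA1 (protein A′) had 0, 58.2 and 143 normalised reads in control cells and 149, 171 and 138 with overexpression, groups that overlapped (limma, adjusted p = 0.25). SNRPB2 (protein B″) had none.

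The Sm proteins form the ring on which U1, U2, U4 and U5 are assembled. SNRPB, the gene for SmB and SmB′, had 347, 254 and 306 normalised U2AF2 reads in control cells and 49.6, 48.8 and 34.3 with overexpression. It fell by 2.75 ± 0.22 (SE) on the log2 scale (limma, adjusted p = 0.000216). SNRPD1 rose from 14.5 ± 3.78 to 46.9 ± 12.6 (SD, n = 3), by 1.62 ± 0.46 (SE) on the log2 scale (limma, adjusted p = 0.0329). SNRPD2 had no listed peak in control cells and 2.57, 3.05 and 4.05 normalised reads with overexpression (adjusted p = 0.000224). A peak at the 6-read minimum was worth 10.2 to 17.3 normalised reads in the U2AF2 control libraries, so that such a level could not have been listed there, and under quantile normalization its change was -0.33. SNRPD3, SNRPE, SNRPF and SNRPG did not pass, and each but SNRPG lacked a peak in at least 1 library. Of the 7 Sm genes tested, 2 thus passed upwards, SNRPD2 among them, and 1 downwards, beside 27.5% and 16% of all genes tested. Under quantile normalization 0 and 1 passed, beside 21.5% and 18%.

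The LSm ring holds the 3′ end of U6 snRNA. LSM5 had 43.4, 47.6 and 49.2 normalised U2AF2 reads in control cells and 9.84, 5.59 and 12.8 with overexpression, a fall of 2.26 ± 0.50 (SE) on the log2 scale (limma, adjusted p = 0.0137). It was not called without overexpression replicate 1 (adjusted p = 0.0864) or 2 (adjusted p = 0.0907). LSM6 had 17.3, 68.8 and 50.9 in control cells, and with overexpression it was listed in replicate 3 alone, at 0.935 (fall of 5.02 ± 0.70, adjusted p = 0.00217). LSM3 moved the other way, from 18.7 in 1 control library to 59.4, 49.3 and 56.1 (adjusted p = 0.0407), and its call was lost in 5 of the 6 fits without 1 library. LSM2, LSM7 and LSM8 did not pass and LSM4 was not tested. Thus 1 of the 6 tested LSm genes rose and 2 fell, beside 27.5% and 16% of all genes tested.

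Of the 12 genes of the tri-snRNP group, all tested, 1 rose and 4 fell, beside 27.5% and 16% of all genes tested. PRPF38B is a relative of the yeast tri-snRNP protein Prp38 with an arginine- and serine-rich tail, and it had the most U2AF2 reads of any member in control cells: 595, 821 and 608 normalised reads. With overexpression it had 86.4, 81.8 and 67.4. The groups lay far apart, and the fall of 3.08 ± 0.18 (SE) on the log2 scale (limma, adjusted p = 0.000205) was kept in all 6 fits without 1 library and in all 14 other settings. PRPF3, a U4/U6 protein, had 361, 469 and 304 normalised reads in control cells and 154, 140 and 135 with overexpression. It fell by 1.37 ± 0.18 (SE) on the log2 scale (limma, adjusted p = 0.0018), although by its number of peaks its change was 0.39. Of its 17 tested sites 11 were higher and 2 lower, beside 69.3% and 11.5% of all sites tested.

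PRPF18, which acts in the second step, fell from 62.1 ± 47.1 to 6.21 ± 2.89 (SD, n = 3; adjusted p = 0.0397), a call kept in 1 of 6 fits without 1 library. The tri-snRNP gene SNRNP27 fell from 87.7 ± 30.1 to 18.3 ± 4.27 (adjusted p = 0.00531). All control reads of both lay in peaks that overlap peaks listed under another gene: MXD1 for SNRNP27, and a gene ID without a symbol for PRPF18. With such peaks left out, SNRNP27 rose by 2.81 on the log2 scale (adjusted p = 0.000981), so its direction is uncertain. SNRNP200, the helicase that unwinds U4 from U6, rose from 75.1, 106 and 37.4 normalised reads to 173, 199 and 167, by 1.41 ± 0.39 (SE) on the log2 scale (limma, adjusted p = 0.0316). It was lost in 4 of the 6 fits without 1 library (highest adjusted p = 0.0913).

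The totals of 3 U5 genes did not pass with size factors. PRPF8, the scaffold of the catalytic centre, had 97.9 ± 21.1 normalised reads in control cells and 113 ± 10.8 (SD, n = 3) with overexpression. EFTUD2, the U5 GTPase, had 129 ± 43.1 and 146 ± 11.8. SNRNP40, a U5 protein, had 83.1 ± 45.6 and 95.1 ± 13.1. None of these passed (adjusted p = 0.407, 0.521 and 0.553), and the groups overlapped in each. Scaled by total reads in peaks, PRPF8 was higher by 1.02 on the log2 scale (adjusted p = 0.0107) and EFTUD2 by 1.05 (adjusted p = 0.0231), and SNRNP40 passed only among genes listed in every library (log2 change 1.12, adjusted p = 0.0357). PRPF4 (adjusted p = 0.128) and PRPF31 (adjusted p = 0.1), both U4/U6 proteins, were higher on average without passing. PRPF6, which bridges U5 and U4/U6, and PRPF38A did not pass either (adjusted p = 0.131 and 0.73).

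SNRNP48 encodes a U11/U12 protein that contacts the 5′ splice site of minor introns. Its normalised U2AF2 reads were 54.9, 82.1 and 83.2 in control cells and 221, 226 and 171 with overexpression, without overlap, a rise of 1.49 ± 0.23 (SE) on the log2 scale (limma, adjusted p = 0.00309). Of the Prp19-related genes BUD31 rose from 75.1, 87.4 and 39.1 to 197, 187 and 168 (log2 change 1.52 ± 0.32, adjusted p = 0.0121). ISY1 rose from 37.6, 31.8 and 47.5 to 108, 103 and 87.6 (log2 change 1.35 ± 0.24, adjusted p = 0.00574). Its call was lost without overexpression replicate 1 (adjusted p = 0.0747) or 2 (adjusted p = 0.0643). Peaks overlapping those of ISY1-RAB43 held 38.1% of its overexpression reads and none of its control reads, and without shared peaks its change was -0.92 (adjusted p = 0.721). PRPF19 itself (adjusted p = 0.217) and CDC5L (adjusted p = 0.285), 2 core subunits of that complex, did not pass. Nor did AQR, CWC22, CWC27, PLRG1, SLU7, CDC40 or the minor-spliceosome gene SNRNP35 under this filter, and XAB2 had too few peaks to be tested.

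**Figure D2:**
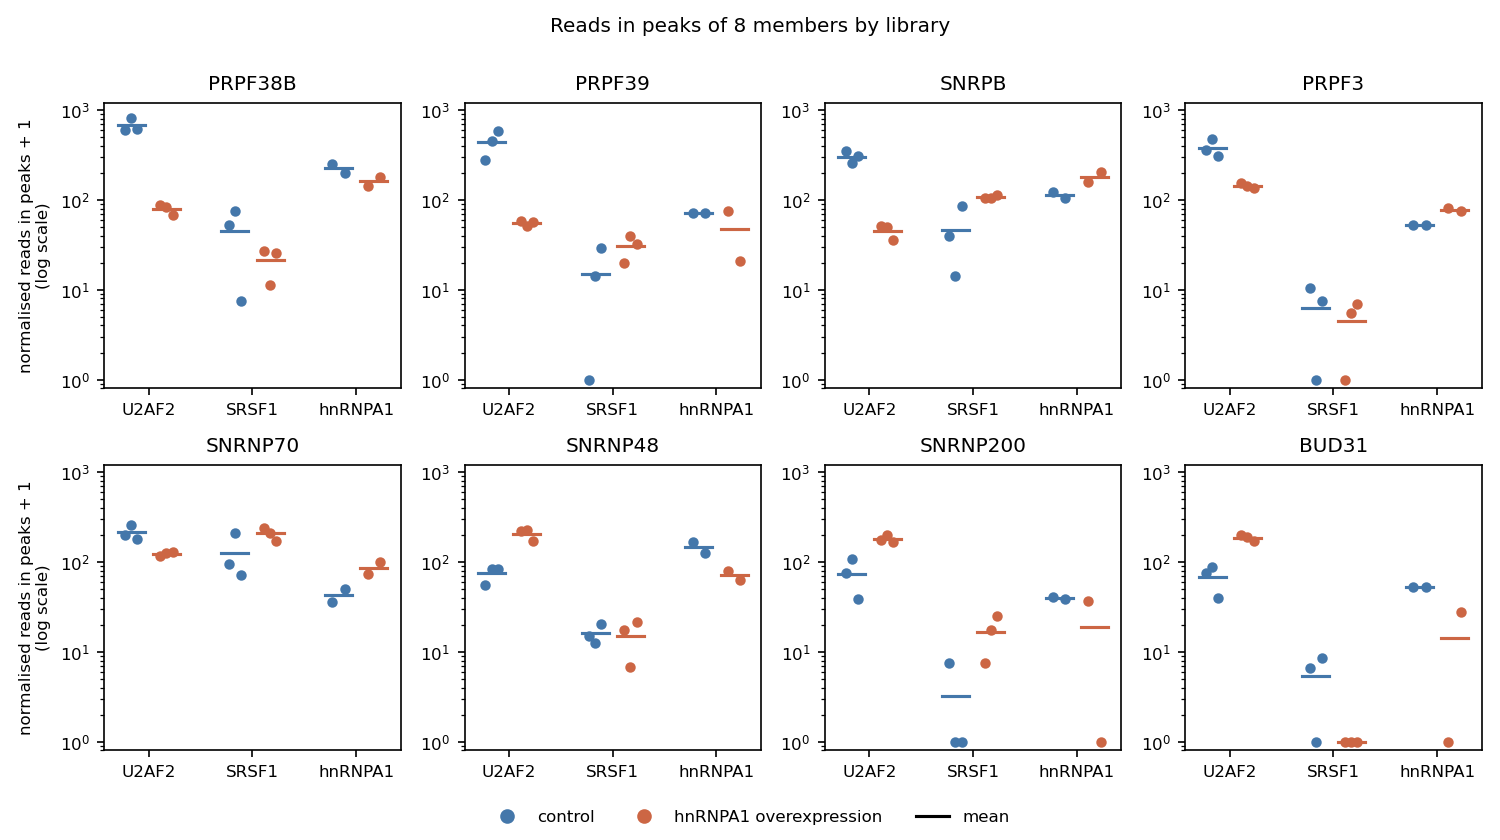
Normalised reads in peaks plus 1, on a log axis, for 8 members in each library of U2AF2, SRSF1 and hnRNPA1. Blue points are control and orange points hnRNPA1 overexpression libraries, and bars are arithmetic means. In PRPF38B, PRPF39, SNRPB, PRPF3 and SNRNP70 every U2AF2 overexpression point lies below every control point, and in SNRNP48, SNRNP200 and BUD31 above, while the SRSF1 points overlap in PRPF38B, PRPF39, PRPF3, SNRNP70 and SNRNP48.

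A site is the union of overlapping peaks of 1 gene and strand over a protein's libraries, and coordinates are hg19, counted from 1. Over all U2AF2 sites tested 69.3% were higher and 11.5% lower. PRPF38B had 10 tested U2AF2 sites, of which 3 rose and 5 fell. The strongest, chr1:109239024-109239416 on the plus strand, held 211, 304 and 239 normalised reads in control cells and no listed peak in any overexpression library. The site chr1:109240263-109240479 fell from 119 ± 39.3 to 0.728 ± 1.26 (SD, n = 3). Elsewhere in the gene, chr1:109242022-109242160 had 58.2 normalised reads in 1 control library and 27.8, 34.5 and 24.9 with overexpression.

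PRPF39 lost its strongest site in the same way. chr14:45565429-45565812 held 165, 275 and 178 normalised reads in control cells and had no listed peak with overexpression. At the PRPF3 site chr1:150317068-150317782 the values were 298, 238 and 166 in control cells, and with overexpression it was listed in replicate 3 alone, at 3.12. A second PRPF3 site, chr1:150318833-150318933, kept a peak in every library and fell from 39.4 ± 15.0 to 5.08 ± 2.07 (SD, n = 3), by 2.72 ± 0.47 (SE) on the log2 scale (limma, adjusted p = 0.00236). The SNRNP70 site chr19:49607296-49607434 also kept its peaks, at 40.5, 58.2 and 39.0 in control cells and 12.8, 22.9 and 11.2 with overexpression, a fall of 1.54 ± 0.37 (SE; adjusted p = 0.0104).

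In control cells SNRPB held nearly all of its U2AF2 signal at 1 short site of 71 nt, chr20:2443613-2443683 on the minus strand. That site had 347, 214 and 306 normalised reads in control cells and 4.70, 10.2 and 0 with overexpression. At the same place hnRNPA1 had 57.1 and 61.9 in control cells and 99.2 and 140 with overexpression at chr20:2443608-2443681, a rise of 0.98 ± 0.22 (SE; limma, adjusted p = 0.045). SRSF1 had 38.4, 0 and 75.7 there in control cells and 96.4, 104 and 105 with overexpression, which did not pass (adjusted p = 0.365). Peaks overlapping those of another gene ID held 48% of the U2AF2 control reads of SNRPB, 75.4% of its SRSF1 reads, and 66.9% of its hnRNPA1 reads with overexpression but 0% in control cells. With shared peaks left out the fall of SNRPB was not called (log2 change -0.94, adjusted p = 0.437), and its hnRNPA1 change was -0.88 (adjusted p = 0.0422).

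Sites also emptied in PRPF8, SNRNP40 and EFTUD2, whose totals did not pass with size factors. Of 9, 8 and 12 tested sites, 1 was lower in each gene, and 7, 6 and 9 were higher. Over all sites tested 11.5% were lower and 69.3% higher. Of the members' 120 higher sites 115 had no listed control peak. The PRPF8 site chr17:1581006-1581160 fell from 55.3 ± 28.3 normalised reads (SD, n = 3) to no listed peak. The SNRNP40 site chr1:31764634-31764739 had 46.2, 47.6 and 47.5 in control cells and no listed peak with overexpression. The EFTUD2 site chr17:42960537-42960773 fell from 39.3 ± 24.8 to 0.52 ± 0.90. CDC40 had 4 higher sites of 4 tested, while its strongest control site, with 28.3% of its control reads, had no listed peak with overexpression. In this gene chr6:110552594-110552714 rose from 31.7 ± 11.1 to 144 ± 28.1, and chr6:110552437-110552563 from 35.5 ± 5.97 to 82.7 ± 2.33. Peaks shared with a gene ID without a symbol held 90.1% of the U2AF2 reads of CDC40.

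**Figure D3:**
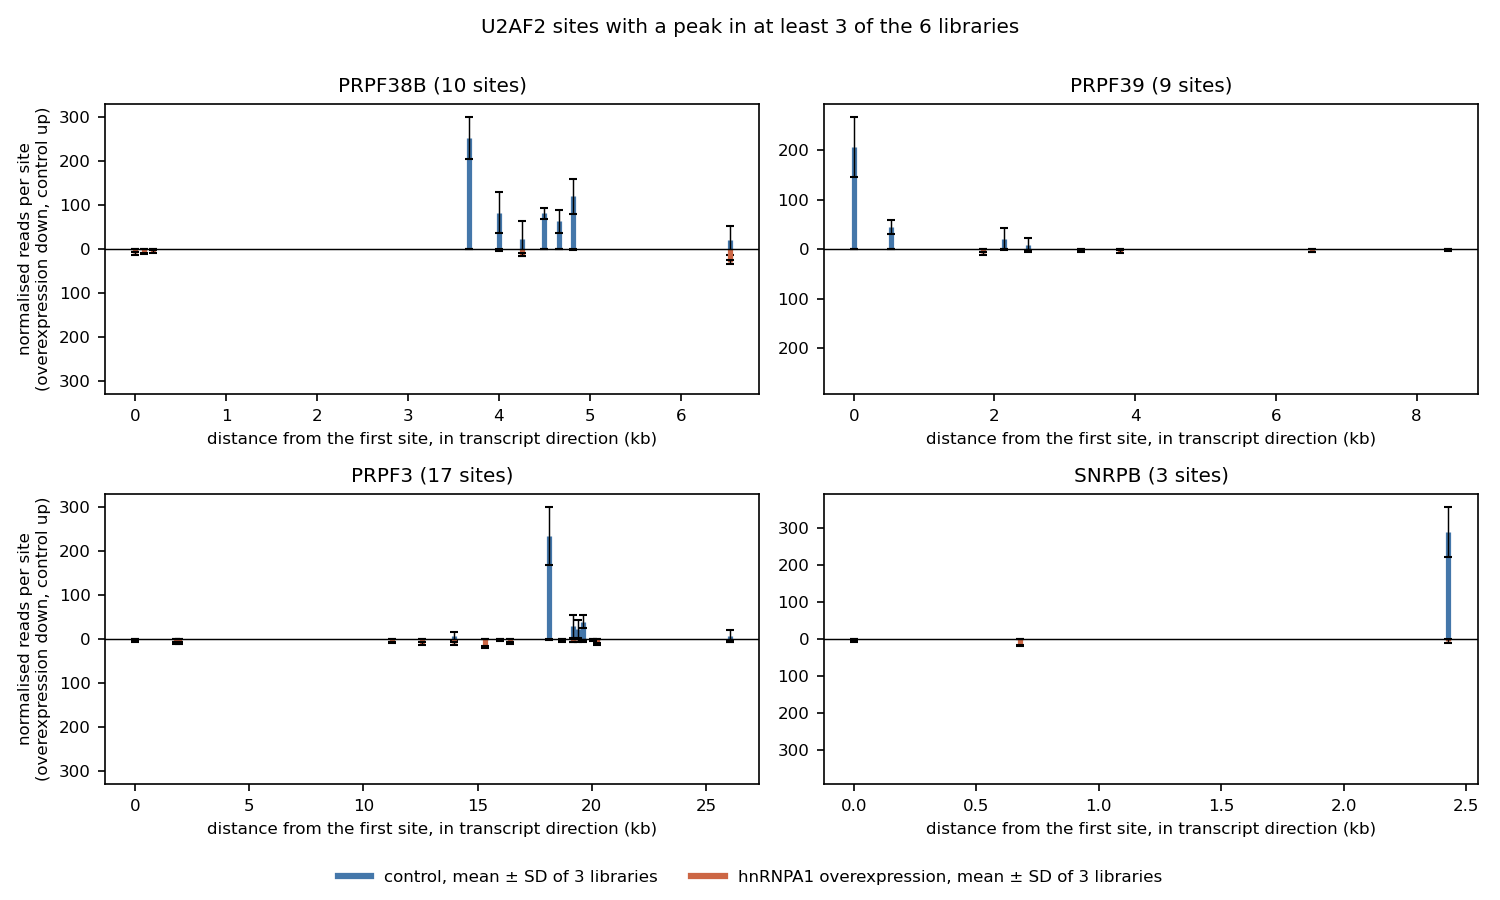
Normalised U2AF2 reads at each site that 3 or more of the 6 libraries listed, against distance in kb from the gene's first such site, for PRPF38B, PRPF39, PRPF3 and SNRPB. Control means point up and overexpression means down on a common linear scale, with SD of 3 libraries as error bars. In each gene the tallest control bar, at 252, 206, 234 and 289 normalised reads, has an overexpression bar near 0.

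Over the members' 177 tested U2AF2 sites 139 passed, 120 higher and 19 lower, beside 80.8% of all sites tested (69.3% higher and 11.5% lower). Of the 120 higher sites 115 had no listed control peak, so that they entered the test through the deeper overexpression libraries in which they are high. Of the 19 lower sites 12 had no listed overexpression peak and entered through the control libraries alone. Both counts moved when 1 library was left out. Without overexpression replicate 1, 2 or 3 the filter left 56 to 62 sites, of which 2 were higher and 19 lower in each fit. Without control replicate 1, 2 or 3, 12, 9 and 8 sites were lower and 122 to 128 higher. Of 8 member sites with a peak in every library 5 passed, 3 higher and 2 lower, beside 76.3% of all such sites (42.8% higher and 33.6% lower).

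The strongest site of a member was often one that the other condition did not list. Among 43 members with U2AF2 peaks in both conditions, the strongest control site had no peak in any overexpression library in 29 (67.4%), although those libraries were deeper. The same held for 46.7% of the 11602 genes with peaks in both conditions. Because the strongest control site is chosen for its control reads, a fall there is partly built in, so the strongest peak was also chosen in 1 library and followed into each of the others. Chosen in a control library, it overlapped a peak in another control library in 55.2% to 70.4% of the members with a peak in both, and in an overexpression library in 26.5% to 36.7%. Over all genes these ranges were 63.1% to 67.8% and 43.8% to 49.1%. Chosen in an overexpression library, it was found again in 82.5% to 95% of members in another overexpression library and in 18.9% to 29.4% in a control library (all genes, 85.1% to 92.9% and 36.7% to 46.6%). For U2AF2 the 2 conditions thus shared fewer strongest peaks than replicates did, in members and in all genes. The members lay below all genes between conditions in each pair of libraries, a difference that was not tested.

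**Figure D4:**
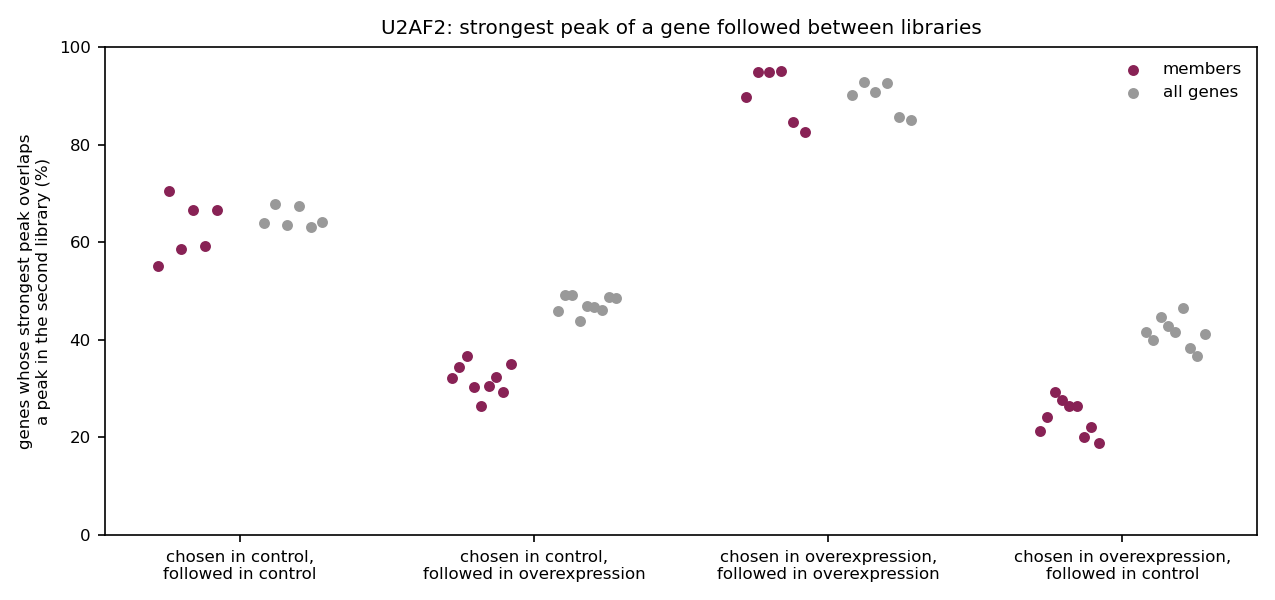
Share of genes whose strongest U2AF2 peak in 1 library overlaps a peak of the same gene in a second library, among genes with a peak in both. Each point is 1 ordered pair of libraries, in purple for the members and in grey for all genes. Between control and overexpression libraries the members lie at 18.9% to 36.7%, below the grey points at 36.7% to 49.1%.

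The depth of hnRNPA1 libraries ran the other way, and the same measure gave 61% and 68.3% of members between the 2 hnRNPA1 control libraries, 48% and 56% between the 2 overexpression libraries, and 26.9% to 46.2% from a control to an overexpression library. Over all genes these were 77.5% and 78.6%, 57.2% and 58.2%, and 45.3% to 52.1%. From an overexpression to a control library it gave 36.7% to 46.2% of members and 64.2% to 68.6% of all genes. For members this range lay below that between the 2 overexpression libraries, and over all genes above it. The part of depth in these shares was not tested. SRSF1 members, few per library, ranged from 46.2% to 83.3% between control libraries and from 28.6% to 85.7% from control to overexpression (all genes, 63.8% to 76.1% and 55.2% to 64%).

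SRSF1 binding in the members showed little change that could be told from the spread. Of 22 members tested 1 passed, beside 8.32% of 5598 genes (6.38% higher and 1.95% lower). No call was made among the 5 members listed in all 6 libraries (6.78% of all such genes passed, 4.17% higher and 2.6% lower). CWC27, a cyclophilin of the catalytic spliceosome, had 5.62, 11.7 and 6.49 normalised reads in control cells and no listed peak with overexpression (limma, adjusted p = 0.0256). It was not called in any of the 3 fits without 1 library that tested it (adjusted p = 0.364 to 0.417). SNRNP70, SNRPB and PRPF8 had the most SRSF1 reads of the members. SNRNP70 had 94.5, 208 and 70.3 in control cells and 240, 207 and 172 with overexpression, groups that overlapped (adjusted p = 0.321). SNRPB had 38.4, 13.3 and 83.3 in control cells and 103, 104 and 113 with overexpression, which did not overlap (15.7% of all genes separated upwards) but did not pass (adjusted p = 0.232). PRPF8 had 35.9 ± 8.47 and 37.3 ± 19.4 (SD, n = 3; adjusted p = 0.944). PRPF38B had 51.5, 73.2 and 6.49 SRSF1 reads and then 26.3, 10.2 and 24.8 (adjusted p = 0.736). Over the members' 28 SRSF1 sites 4 passed, beside 17.5% of all sites (11.5% higher and 6.04% lower), and 0 to 2 passed in the fits without 1 library. The 1 higher site had no listed control peak and the 3 lower sites no listed overexpression peak. All 4 thus entered the test through the condition in which they are high. Of 5 member sites listed in all 6 libraries 0 passed, beside 16.2% of such sites (11.7% higher and 4.49% lower).

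For hnRNPA1 itself the overexpression libraries were the shallower ones. Of 46 members tested 10 passed, 2 higher and 8 lower, beside 38.4% of 12461 genes (4.31% higher and 34.1% lower). Each of the 10 had no listed peak in 1 condition, so that its groups did not overlap (over all genes 15.7% separated upwards and 56.6% downwards), and 0 of the 34 tested members with peaks in both conditions passed. The share that passed among all genes with peaks in both conditions was not counted. The 8 lower members were PRPF40B, SNRPB2, LSM3, LSM4, LSM7, PRPF4, PRPF19 and CRNKL1, with control means of 4.77 to 23.8 normalised reads and none with overexpression. A single peak at the 6-read minimum was worth 14.2 and 13.4 normalised reads in the 2 overexpression libraries. The control means of 5 of the 8 lay below that level. Those of LSM3, LSM4 and PRPF4 lay above it but were summed over several sites. The strongest of these sites held 54.04%, 22.95% and 68.75% of the control reads. A total above the minimum of 1 peak thus does not show that a peak could have been listed. A fit without 1 hnRNPA1 library leaves a single library in 1 condition. Without control replicate 1 or 2 the 8 lower members had a peak in too few libraries and were not tested.

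The 2 that rose entered the test through the overexpression libraries alone, each with 1 peak of 7 to 14 reads a library. SNRPF, an Sm protein, had no listed hnRNPA1 peak in control cells and 16.5 and 15.6 normalised reads with overexpression. XAB2, a Prp19-related scaffold, likewise had none in control cells and then 16.5 and 31.2. Neither call was kept when control replicate 1 or 2 was left out (lowest adjusted p = 0.785).

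Among the 23 members with a peak in every hnRNPA1 library 1 passed, beside 17.8% of all such genes (9.5% higher and 8.33% lower). SNRPA1 had 7.43 and 26.2 normalised reads in control cells and 89.8 and 75.8 with overexpression, a rise of 2.46 on the log2 scale (limma, adjusted p = 0.037, and 0.0903 under the wider filter). PRPF38B, SNRNP48 and SNRPB had the most hnRNPA1 reads. PRPF38B had 250 and 197 normalised reads in control cells and 142 and 178 with overexpression (adjusted p = 0.203). SNRNP48 had 166 and 126, then 78.0 and 62.4 (adjusted p = 0.0574), and SNRPB 122 and 104, then 156 and 203 (adjusted p = 0.113). Of the members' 145 hnRNPA1 sites 80 passed, 14 higher and 66 lower, beside 55.5% of all sites (8.35% higher and 47.2% lower), and 0 passed without control replicate 1 or 2. All 66 lower sites had no listed overexpression peak, and 13 of the 14 higher sites had no listed control peak. These sites thus entered the test through the condition in which they are high. The lower ones were therefore not tested without control replicate 1 or 2. Of 12 member sites listed in all 4 libraries 5 passed, all higher, beside 58.9% (56.2% higher and 2.75% lower).

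The change with overexpression was then compared between proteins by an interaction term in limma. The U2AF2 change lay below the SRSF1 change in 3 of 22 members, beside 17.9% of all genes passing (4.98% higher and 12.9% lower): SNRPB, PRPF39 and SNRNP70. The differences in SNRNP70 and PRPF39 were kept in 2 and 5 of 12 fits without 1 library (highest adjusted p = 0.106 and 0.068). For SNRPB the difference was -4.32 ± 0.73 (SE, adjusted p = 0.00179), and it was kept in all 12 fits without 1 library. The differences in SNRPB were not fitted without the shared peaks, on which its U2AF2 call and its hnRNPA1 direction depend. The U2AF2 and hnRNPA1 changes differed in 12 of 40 members, beside 44% of all genes (32.7% higher and 11.4% lower), with U2AF2 lower in 5 and higher in 7. The median difference over all genes in this test was 2.05, so positive differences were common among all genes. In PRPF38B the difference was -2.60 ± 0.31 (SE, adjusted p = 0.000263), in SNRPB -3.40 ± 0.35 (adjusted p = 0.000113) and in PRPF3 -1.95 ± 0.30 (adjusted p = 0.00106), and in SNRNP48 it was 2.53 ± 0.38 (adjusted p = 0.000995). These 4 were kept in all 10 fits without 1 library.

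Of the 251 skipped exons in the authors' deposited table, 1 lay in a member, PRPF38B, at chr1:109238899-109241449. In the authors' deposited table its inclusion was a fraction of 0.18 and 0.54 in the 2 control samples and 0.15 and 0.16 with overexpression. The 2 controls differed, and the first lay close to both overexpression samples. In the authors' deposited table, 1 of the 4 pairs of samples passed the authors' rule, with a difference of 0.38 and a Bayes factor of 13.7. The span of this event held most of the U2AF2 signal of PRPF38B in control cells, but not with overexpression. Inside it the normalised U2AF2 reads were 567, 762 and 608 in control cells and 25.2, 14.2 and 15.6 with overexpression. Outside it they were 28.9, 58.2 and 0 in control cells, and 61.2, 67.6 and 51.8 in overexpressing cells. The hnRNPA1 reads inside the span were 151 and 123, then 87.4 and 120, and the SRSF1 reads were at most 20 in any library.

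The U2AF2 peaks of members were also set against the hnRNPA1 control peaks. The shares that overlapped were 36.1%, 34.0% and 33.9% of member peaks in control libraries and 25.8%, 26.1% and 20.5% with overexpression. Over all peaks they were 41.8% to 46.8% and 22.9% to 32.4%, so the members moved in the same direction as other genes. Weighted by reads, the shares for members were 42.3% to 51.3% in control libraries and 44.6% to 52.7% with overexpression, which overlapped. Peak numbers rose with depth, and the part of depth in these shares was not tested.

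Other genes of the pathway were counted in the same way. Of 70 genes for further spliceosome proteins, among them the SF3A and SF3B subunits of U2, 58 were tested, of which 11 rose and 14 fell, with a median log2 change of 0.00 (-1.05 with values below 6 reads set to 6 reads). Over all genes 27.5% rose and 16% fell, with a median of 0.76 (-0.22 with that floor). Of 29 genes for snRNP biogenesis, among them SMN1 and the Gemin genes, 25 were tested, of which 4 rose and 3 fell, with a median of 0.22. For SRSF1, 2 rose and 3 fell of 30 in the first list and 0 of 9 in the second, beside 6.38% and 1.95% of all genes. For hnRNPA1, 4 rose and 19 fell of 59 in the first list, and 1 rose and 8 fell of 24 in the second, beside 4.31% and 34.1% of all genes.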

How the data were processed

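The authors called peaks on hg19 in each library with CLIPper, per the file headers. TopHat and Bowtie2 are named in the submitters' processing notes, and their versions are not given in the sources used here. Each deposited peak name holds a gene ID and a count of reads. The deposited table of skipped exons gives inclusion as a fraction and the Bayes factor as a ratio. Of 19362 gene IDs, 17814 (92.0%) matched a symbol. Reads were summed per gene and library (0 where no peak is listed), divided by median-of-ratios size factors per protein, and tested as log2(value + 1) with limma 3.58.1 in R 4.3.3. A count model was not used, because reads outside peaks are missing. Members are named where they passed a test, were among the 3 with the most reads for a protein, had peaks in only 1 condition, or were core subunits; PLRG1, SNRNP40 and CDC40 were added after their values were seen. Members and lists were chosen with earlier results of these data known.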

Additional observations from a re-analysis of the deposited data

Results flagged for a closer look

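The change with hnRNPA1 overexpression differed between proteins, by an interaction term in limma, in 15 cases among the members, given as the difference in log2 change with its adjusted p. Over all genes 17.9% passed against SRSF1 (median difference -0.07) and 44% against hnRNPA1 (median difference 2.05). U2AF2 lay below SRSF1 in SNRNP70 (-1.64, adjusted p = 0.0436), SNRPB (-4.32, adjusted p = 0.00179) and PRPF39 (-4.90, adjusted p = 0.0297). U2AF2 lay below hnRNPA1 in SNRNP70 (-1.78, adjusted p = 0.00472), PRPF3 (-1.95, adjusted p = 0.00106), SNRPB (-3.40, adjusted p = 0.000113), PRPF38B (-2.60, adjusted p = 0.000263) and PRPF39 (-2.08, adjusted p = 0.0486). U2AF2 lay above hnRNPA1 in PRPF31 (6.65, adjusted p = 0.047), BUD31 (4.82, adjusted p = 0.0447), CDC40 (2.79, adjusted p = 0.0345) and SNRNP48 (2.53, adjusted p = 0.000995). It also did so in PRPF19 (5.14, adjusted p = 0.0236), PRPF4 (4.94, adjusted p = 0.00067) and LSM3 (8.74, adjusted p = 0.0045). These genes had no hnRNPA1 peak with overexpression and passed the hnRNPA1 filter through its control libraries alone. A single peak at the 6-read minimum was worth 14.2 and 13.4 normalised reads in the hnRNPA1 overexpression libraries. The call and the size of these differences thus depend on unlisted peaks and on the pseudocount. The sizes for PRPF31 and BUD31 depend on the pseudocount too. Neither had an hnRNPA1 peak in overexpression replicate 1, and PRPF31 had no U2AF2 peak in control replicate 1. Kept in every fit without 1 library that tested them were SNRPB against SRSF1, and PRPF3, SNRPB, PRPF38B, PRPF4, SNRNP48 and LSM3 against hnRNPA1. Against hnRNPA1, PRPF4 and LSM3 were tested in 8 such fits and the other 4 in 10. None of the 8 left out an hnRNPA1 control library, so they do not test those calls against the loss of 1.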

How the results depend on the processing

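U2AF2 gave 16 members, and 5 from the number of peaks per gene (25.4% of all genes). SRSF1 gave 1, and 0 with quantile normalization, a peak in every library (also thinned or on total reads), no filter, a pseudocount of 5, or peaks of at least 12 reads, and 3 thinned. hnRNPA1 gave 10, and 0 with quantile normalization (0 of all 12461 genes), 1 with a peak in every library, 2 with that filter thinned or on total reads, and 19 with peaks of at least 12 reads. U2AF2 against SRSF1 gave 3, and 0 from peak numbers and 5 thinned, and against hnRNPA1 12, and 4 from peak numbers. Sites with a peak in every library gave 5 for U2AF2, 0 for SRSF1 and 5 for hnRNPA1. Without 1 library, members called ranged from 8 to 21 for U2AF2, 0 to 0 for SRSF1, 0 to 17 for hnRNPA1, 1 to 5 and 4 to 16 for the 2 differences, and sites from 21 to 136, 0 to 2 and 0 to 81. Replicate numbers did not pair the libraries (U2AF2 correlations of same-numbered libraries 0.022, -0.002 and 0.019). With the replicate block the calls were 12, 0 and 10, then 2 and 9 for the differences, and 139, 4 and 80 sites. Log2 changes that turned sign were, for U2AF2, SNRNP70 on total reads (0.03, also with a peak in every library), BUD31 (-0.04), PRPF3 (0.39) and SNRPB (0.07) from peak numbers, LSM5 with at least 12 reads (0.37), SNRPD2 under quantile normalization (-0.33), SNRPG thinned with a peak in every library (-1.32), and SNRNP27 (2.81) and ISY1 (-0.92) without shared peaks. For hnRNPA1 they were SNRPA (-2.84), EFTUD2 (-5.38) and PRPF3 (-5.09) with at least 12 reads, CRNKL1 (0.27), PRPF19 (0.05), PRPF40B (0.45), SNRPB2 (0.44) and LSM7 (0.44) under quantile normalization, and SNRPB without shared peaks (-0.88). Differences from hnRNPA1 that turned were LSM5 under quantile normalization (-3.77), and PRPF3 (0.02) and PRPF39 (0.08) from peak numbers. The causes were not tested. The thinned fits and those on total reads with a peak in every library were added after seeing the data.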
